A study of Mus musculus with 6 samples.

Results

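NK cells kill target cells by releasing the contents of secretory granules, and 10 genes of that release were examined: perforin (Prf1), the granule components Srgn, Ctsc, Nkg7 and Lamp1, and the genes of granule maturation, priming and fusion Lyst, Unc13d, Rab27a, Stx11 and Stxbp2. They were taken by symbol from a list of the machinery drawn up with earlier results of these data known, the rule itself using no measured value, and all 10 were found among the 24343 genes of the deposited tables. The cells were splenic NK cells of female C57BL/6 mice, sorted as NK1.1+ NKp46+ cells without CD3 or CD1d tetramer staining, after treatment of the mice with a complex of IL-15 (IL-15C) or a complex of IL-2 (IL-2C). Each treatment had 3 RNA sequencing libraries, and all 6 shared the strain, the organ and the sort. Dose, time, mouse age and the carrier of the complexes are not given in the sources used here, and untreated cells were not analysed here, so every difference is between 2 stimulated states. Whether each library stands for its own mouse is not stated, and the p-values then rest on a spread between libraries that may be technical.

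A cytotoxic granule is a secretory lysosome. Serglycin, a proteoglycan, holds granzymes and perforin in its matrix, and cathepsin C removes the propeptide that keeps granzymes inactive. When the cell meets a target, granules move to the contact site, RAB27A brings them to the plasma membrane with the priming protein Munc13-4, and the SNARE syntaxin-11 with its chaperone Munc18-2 carries out fusion. Perforin then forms pores through which granzymes enter the target. Inherited loss of perforin, Munc13-4, syntaxin-11 or Munc18-2 causes familial hemophagocytic lymphohistiocytosis in humans, and loss of RAB27A or LYST causes Griscelli and Chediak-Higashi syndromes.

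Expression is given in FPKM, fragments per kilobase of transcript scaled to the library's mapped fragments, as deposited. Because FPKM is scaled by transcript length, levels of different genes can be set side by side. The deposited intervals implied 23543141 to 27229145 fragments per library, and between 1496 and 61571 fragments per member and library. Counting error alone would give a coefficient of variation of at most 2.59% for any member (Stx11) and 0.414% for Prf1, against 2.18% to 10.4% between libraries of one group. NK markers were abundant, with 755 to 832 FPKM of Ncr1 (NKp46) and 507 to 557 FPKM of Klrb1c (NK1.1). Of the 8 T cell markers, Cd4, Cd8a, Cd8b1 and Cd5 stayed at or under 0.0333, 0.077, 0.0565 and 0.277 FPKM. The CD3 chain genes Cd3d, Cd3e and Cd3g, whose protein was gated out, had 15.3 to 22.3, 3.40 to 5.70 and 30.7 to 44.6 FPKM. Lef1 had 16.2 to 19.9 FPKM. In such bulk samples, fewer cells of a type and less RNA per cell cannot be told apart.

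None of the 10 genes passed the test between IL-15C and IL-2C (limma on log2(FPKM + 1), Benjamini-Hochberg adjusted over all genes tested, threshold 0.05), where 6.44% of the 9831 tested genes did, 1.72% higher and 4.72% lower in IL-15C. The split over all genes, 169 higher and 464 lower, depended on scaling and was 325 and 207 at a common median, 307 and 269 after quantile normalization and 204 and 326 at a common sum. Relative to IL-2C, mean FPKM in IL-15C differed by -3.56% for Stxbp2 at one end and by 11.5% for Srgn at the other. Taking the 95% intervals of the limma fit as folds on the FPKM + 1 scale, the highest upper bound was 1.25-fold (Srgn) and the lowest lower bound 0.893-fold (Ctsc). In the authors' deposited table of group estimates, the interval bounds overlapped for all 10 members, where 0.814% of tested genes had bounds apart. At an unadjusted p under 0.05, 2 members were higher in IL-15C and 0 lower, against 6.48% and 20.4% of all tested genes. The 2 were Unc13d and Rab27a, which bring the granule to the membrane. The change was above 0 for 8 of the 10, with a median log2 change of 0.05, while it was above 0 for 35.3% of all tested genes, whose median was -0.04. This contrast depended on scaling, with 9 of 10 members against 50.2% of all genes at a common median and 8 of 10 against 47.5% after quantile normalization. Without IL-15C replicate 1, 5 of the 10 were above 0 against 30.4% of all genes. Gzmb, the gene of the cargo protease granzyme B, was measured in the same libraries and did rise, as described after the members.

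**Figure D1:**
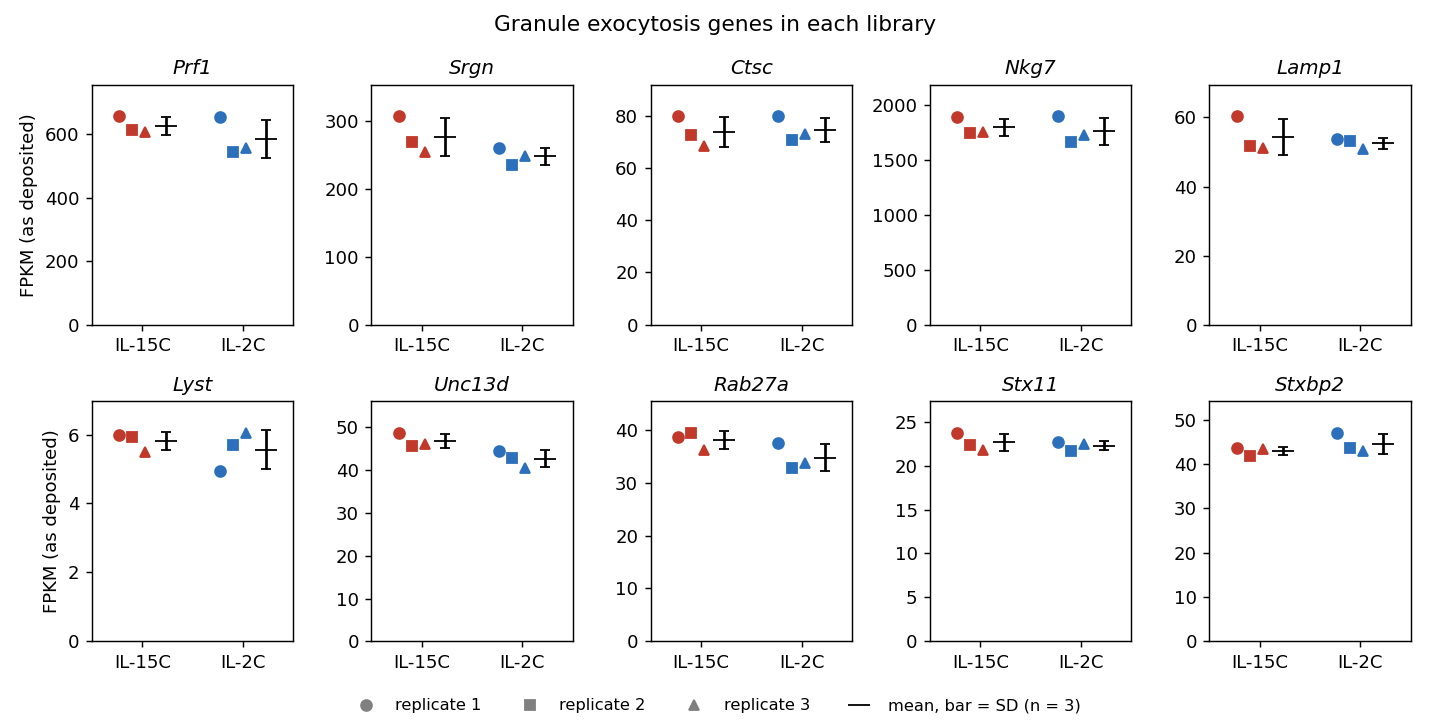
FPKM of the 10 genes in each library (vertical axes from 0, as deposited), with IL-15C in red and IL-2C in blue. Black marks are group means with SD (n = 3), and Unc13d is the one panel in which the 3 IL-15C points all lie above the 3 IL-2C points.

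The order of levels ran from the granule membrane and contents to the release machinery. Nkg7, a small membrane protein of cytotoxic granules, averaged 1775 FPKM over the 6 libraries and ranked between 10 and 12 among all genes. Prf1 followed at 606 FPKM, Srgn at 262, Ctsc at 74.0 and Lamp1 at 53.5. The release genes were lower, with Unc13d at 44.8, Stxbp2 at 43.7, Rab27a at 36.4 and Stx11 at 22.4 FPKM. Lyst, whose protein is needed for lysosome and granule size control, was lowest at 5.68. Unc13d and Stxbp2 had overlapping library values, while each other neighbour in this order was separated from the next in all 6 libraries.

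The sequences before the start sites of Prf1 and Nkg7, the 2 most abundant members, and of Gzmb, for comparison, are shown as a description. Any link of these sequences to the difference between treatments was not tested. Each is the 250 bases upstream of the RefSeq start on its own strand (build GRCm38.p6), from chr10:61297586-61297835 (plus strand) for Prf1, chr7:43436888-43437137 (plus strand) for Nkg7 and chr14:56262335-56262584 (minus strand) for Gzmb. Capitals mark matches, on either strand, to the motifs TTCNNNGAA (STAT5-type), TCACAC (T-box), TGTGGT (RUNX), GGAAGT (ETS) and TGANTCA (AP-1). No matches overlapped in these 3 windows. The RefSeq start of Gzmb lies 74 bases upstream of the start in the deposited files. The bases just after the RefSeq start were found in a GENCODE transcript for Nkg7, but not for Prf1 or Gzmb.
Prf1: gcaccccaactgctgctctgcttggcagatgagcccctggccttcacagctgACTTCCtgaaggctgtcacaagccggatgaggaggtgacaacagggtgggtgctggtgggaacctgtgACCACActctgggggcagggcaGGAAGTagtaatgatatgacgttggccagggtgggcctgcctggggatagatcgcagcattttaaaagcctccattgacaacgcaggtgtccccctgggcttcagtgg
Nkg7: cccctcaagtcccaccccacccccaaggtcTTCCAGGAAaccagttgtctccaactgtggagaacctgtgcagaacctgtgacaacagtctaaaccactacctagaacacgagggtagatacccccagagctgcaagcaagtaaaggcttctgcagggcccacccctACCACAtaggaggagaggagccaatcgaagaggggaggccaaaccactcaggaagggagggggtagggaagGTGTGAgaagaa
Gzmb: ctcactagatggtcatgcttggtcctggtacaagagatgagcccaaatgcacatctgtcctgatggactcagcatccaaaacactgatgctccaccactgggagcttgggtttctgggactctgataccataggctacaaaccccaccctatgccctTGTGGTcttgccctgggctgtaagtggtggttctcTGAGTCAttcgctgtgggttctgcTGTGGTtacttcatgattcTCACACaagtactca
The Prf1 window held 1 RUNX and 2 ETS matches, the Nkg7 window 1 STAT5-type, 1 T-box and 1 RUNX match, and the Gzmb window 1 T-box, 2 RUNX and 1 AP-1 match. Windows were found for 9 of the 10 members, all but Unc13d. The STAT5-type motif was in 3 of the 9 (Ctsc, Nkg7 and Lyst) and in 7.02% of all 32851 windows of that length. The T-box motif was in 4 of the 9 (12.3% of all windows), RUNX in 5 (14.0%), ETS in 2 (19.7%) and AP-1 in 0 (6.75%). A match is a run of letters and no evidence of binding, and these counts were not tested.

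Perforin is the pore-forming effector itself. Prf1 (chromosome 10, 61297836 to 61304263, mm10) had 657, 613 and 607 FPKM after IL-15C, with 655, 543 and 558 after IL-2C. IL-2C replicate 1 lay just under the highest IL-15C library, while the other 2 IL-2C libraries lay below every IL-15C value. The means were 626 FPKM ± 27.3 (SD, n = 3) and 585 ± 61.0. The log2 change was 0.10 ± 0.08 (SE), with a 95% interval of -0.08 to 0.28 and a limma adjusted p of 0.434. The change was 0.18 when IL-2C replicate 1 was left out and 0.05 when replicate 2 of that group was, and neither passed. The interval leaves room for a rise of up to 1.21-fold and a fall to 0.949-fold.

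Serglycin, the core protein of the granule matrix, had the largest change among the members. Srgn (chromosome 10, 62494428 to 62507755) had 307, 269 and 254 FPKM after IL-15C, with 260, 236 and 248 after IL-2C. The highest 2 values were both from IL-15C, and the remaining IL-15C value lay inside the IL-2C range. Means were 277 FPKM ± 27.5 (SD, n = 3) and 248 ± 12.4, and the log2 change was 0.15 ± 0.07 with an interval of -0.01 to 0.32 (limma adjusted p = 0.218). The highest value came from IL-15C replicate 1, and without that library the change was 0.07. Serglycin is also made by myeloid cells. That library had a summed level of 100.2 FPKM over the 7 measured neutrophil markers, against 36.6 to 55.1 in the 5 others. Of these markers, 0 were at 0 in all libraries, Mpo and Elane, which define neutrophil precursors, stayed under 1 FPKM in every library, and 1 of the 5 tested (Retnlg) passed as higher in IL-15C. Over the 8 macrophage and monocyte markers the sum was 26.7 FPKM in that library and at most 21.3 in the others, 0 being at 0 in all libraries and 7 of the 8 staying under 1 FPKM throughout. The same library was highest in the sum of the 8 erythroid and platelet markers, at 23.2 FPKM against 1.81 to 4.86, of which 0 were at 0 in all libraries and 5 stayed under 1 FPKM. It was also highest in the sum of the 8 T cell markers, at 89.7 FPKM against 70.2 to 77.6. The same held for the 8 dendritic cell markers, at 31.3 against 19.4 to 30.1. Of these 2 lists, 4 T cell and 5 dendritic cell markers stayed under 1 FPKM throughout. The largest single parts in that library were Cd3g, at 44.6 FPKM, and Bst2, at 23.0. In the sum of the 7 measured B cell markers it was not highest, at 15.7 FPKM against 21.9 in IL-2C replicate 2. The part of any of these cell types in the Srgn value was not tested.

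For Ctsc, Nkg7 and Lamp1 the difference between groups was smaller than the spread between libraries. Ctsc (chromosome 7, 88278093 to 88310875), the gene of the granzyme-activating protease cathepsin C, had 79.7, 72.6 and 68.5 FPKM after IL-15C, with 79.7, 70.6 and 73.1 after IL-2C. The groups overlapped over nearly their whole range, with a log2 change of -0.02 ± 0.07 and an interval of -0.16 to 0.13 (limma adjusted p = 0.890). Under scaling to a common library median the sign of Ctsc turned to 0.03. Nkg7 (chromosome 7, 43437138 to 43438246) had 1885, 1744 and 1748 FPKM after IL-15C, with 1894, 1658 and 1721 after IL-2C. Its highest value was in an IL-2C library, and the log2 change was 0.03 ± 0.08 with an interval of -0.15 to 0.20 (limma adjusted p = 0.838). Lamp1 (chromosome 8, 13159135 to 13175338) encodes the lysosomal membrane protein CD107a, whose appearance at the cell surface is the usual readout of degranulation. It had 60.4, 51.7 and 51.2 FPKM after IL-15C, with 53.7, 53.2 and 50.8 after IL-2C. Apart from IL-15C replicate 1, all Lamp1 values lay within 50.8 to 53.7 FPKM. Its log2 change was 0.05 ± 0.06 (interval -0.10 to 0.19, limma adjusted p = 0.677) and -0.03 without that library, the one with the highest sums of neutrophil and erythroid markers, whose part in the Lamp1 value was not tested. An exon of Lamp1 overlaps one of Grtp1 on the opposite strand in GENCODE, and Grtp1 was listed at 0.422 to 1.19 FPKM.

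The priming and docking genes had the smallest p-values of the members. Unc13d (chromosome 11, 116062096 to 116077961), which encodes the priming factor Munc13-4, had 48.8, 45.7 and 46.2 FPKM after IL-15C, with 44.5, 42.9 and 40.6 after IL-2C. It was the single member whose groups did not overlap, against 8.15% of all tested genes that were separated in the same direction. The means were 46.9 FPKM ± 1.65 and 42.7 ± 1.98 (SD, n = 3), a log2 change of 0.13 ± 0.05 with an interval of 0.02 to 0.24. The limma adjusted p was 0.117 on the values as deposited. Unc13d passed when libraries were scaled to a common median (log2 change 0.18, adjusted p = 0.0281) and after quantile normalization (0.16, adjusted p = 0.0334). These fits called 5.41% and 5.86% of all tested genes. The limma adjusted p of Unc13d ranged from 0.0281 to 0.238 over the alternatives. Rab27a (chromosome 9, 73044810 to 73097614), the small GTPase that tethers granules to the plasma membrane, had 38.6, 39.4 and 36.3 FPKM after IL-15C, with 37.6, 32.8 and 33.8 after IL-2C. IL-2C replicate 1 lay within the IL-15C range and the other 2 below it. The log2 change was 0.13 ± 0.06, with an interval of 0.0017 to 0.26 and a limma adjusted p of 0.180. An exon of Rab27a overlaps one of Gm27186 on the same strand in GENCODE, which was not analysed here. With weights for library quality Rab27a passed (0.17, adjusted p = 0.0354), in a fit that called 21.4% of all tested genes.

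The fusion genes and Lyst had overlapping groups and did not pass. Stx11 (chromosome 10, 12939983 to 12964259), a SNARE of the plasma membrane, had 23.7, 22.3 and 21.8 FPKM after IL-15C, with 22.7, 21.7 and 22.4 after IL-2C. These groups overlapped throughout, and the log2 change of 0.02 had the narrowest interval of the members, -0.08 to 0.12 (limma adjusted p = 0.777). Stxbp2 (chromosome 8, 3631160 to 3643644), the gene of the syntaxin-11 chaperone Munc18-2, had 43.6, 41.9 and 43.3 FPKM after IL-15C, with 47.0, 43.6 and 42.9 after IL-2C. Its log2 change was -0.05 ± 0.05, with an interval of -0.15 to 0.05 (limma adjusted p = 0.516). Lyst (chromosome 13, 13590409 to 13777440) had 5.98, 5.94 and 5.50 FPKM after IL-15C, with 4.94, 5.69 and 6.05 after IL-2C, so that IL-2C held both its lowest and its highest value. The log2 change of Lyst was 0.06 ± 0.07, with an interval of -0.10 to 0.21 (limma adjusted p = 0.635). The sign of the change turned with 1 library left out for Ctsc (IL-15C replicate 3 or IL-2C replicate 1), Nkg7 (IL-15C replicate 1 or IL-2C replicate 2), Lamp1 (IL-15C replicate 1), Lyst (IL-2C replicate 1) and Stx11 (IL-15C replicate 1).

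**Figure D2:**
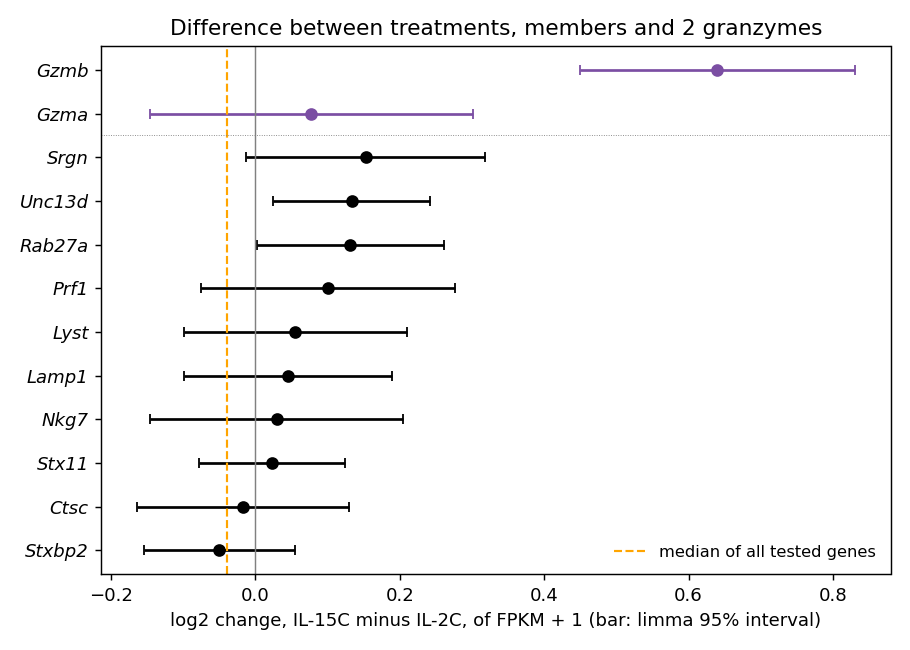
Log2 change of FPKM + 1 between IL-15C and IL-2C for the 10 genes (black) and for 2 granzymes (purple), with 95% intervals of the limma fit over 3 libraries per group. The dashed line is the median of all tested genes at -0.04, and Gzmb at 0.64 lies to the right of every member.

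Within each treatment, the same library tended to hold the highest value of each member. Replicate 1 had the highest value of its group for 9 of 10 members in IL-15C, the exception being Rab27a, and for 9 of 10 in IL-2C, the exception being Lyst. Over all tested genes these shares were 53.2% and 50.5%, and 58.3% and 68.5% among those with a mean of at least 20 FPKM. For 8 of 10 it was highest in both groups, where 29.8% of all tested genes, and 43.8% of those with a mean of at least 20 FPKM, showed this. The 8 follows from the 2 counts of 9 and their different exceptions, and adds nothing to them. The 2 libraries numbered 1 had the fewest implied fragments of their groups, 23543141 in IL-15C and 23665058 in IL-2C. After scaling to a common median the count was 6 of 10 against 17.7% of all tested genes and 25.8% of those with a mean of at least 20 FPKM. After rescaling to a common sum it was 3 of 10 against 9.23% and 13.8%, and after quantile normalization 4 of 10 against 16.1% and 18.8%. The 2 libraries are not stated to share a mouse or a day, and the part of depth in this pattern was not tested.

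Ratios of 2 genes within one library are free of library scaling. Of the 45 pairs among the 10 members, 15 had ratios that did not overlap between IL-15C and IL-2C, or 33.3%, and over all pairs of tested genes the share was 32.4%. The share among the members was thus near that of any 2 genes. Srgn and Stxbp2 took part in 5 separated pairs each and Lyst in 0. As one such pair, chosen after its values were seen, the ratio of Unc13d to Stxbp2, the priming factor and the fusion chaperone, was 1.12, 1.09 and 1.07 after IL-15C, with 0.946, 0.985 and 0.946 after IL-2C. In FPKM, Unc13d was thus the higher of the 2 in all IL-15C libraries and Stxbp2 in all IL-2C libraries. Which gene is higher also depends on the transcript lengths used, and the annotation is not given, so only the shift between treatments is read. This pair is 1 of the 15 separated pairs, picked for its separation, and no test is given for it.

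Granzymes are the cargo that perforin delivers, and in IL-15C Gzmb rose while Prf1 did not pass. Gzmb had 642, 523 and 525 FPKM after IL-15C, with 367, 338 and 375 after IL-2C, a log2 change of 0.64 ± 0.08 (limma adjusted p = 0.00916). It missed the threshold without IL-2C replicate 2 (adjusted p = 0.0516) and with no filter on low values (0.0669). The ratio of Gzmb to Prf1 within a library was 0.976, 0.853 and 0.865 after IL-15C, with 0.559, 0.623 and 0.671 after IL-2C. The 3 IL-15C ratios all lay above the IL-2C ratios, with means of 0.898 ± 0.068 and 0.618 ± 0.056 (SD, n = 3), 1.45-fold by the difference of mean logs. Over all pairs of tested genes, 32.4% had ratios that were likewise apart between groups. Gzmb was chosen because it was called in these same libraries, so the separation of its ratio to Prf1 gives no independent support. An exact permutation test gave 0.1 (two-sided p), which 3 against 3 libraries cannot go below. When single libraries were left out, the difference of mean log2 ratios ran from 0.47 to 0.60, around 0.54 with all 6. The ratio of Gzma to Prf1 was 9.20, 9.58 and 9.37 after IL-15C, with 9.19, 9.35 and 10.1 after IL-2C, and overlapped (exact permutation p = 0.9).

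**Figure D3:**
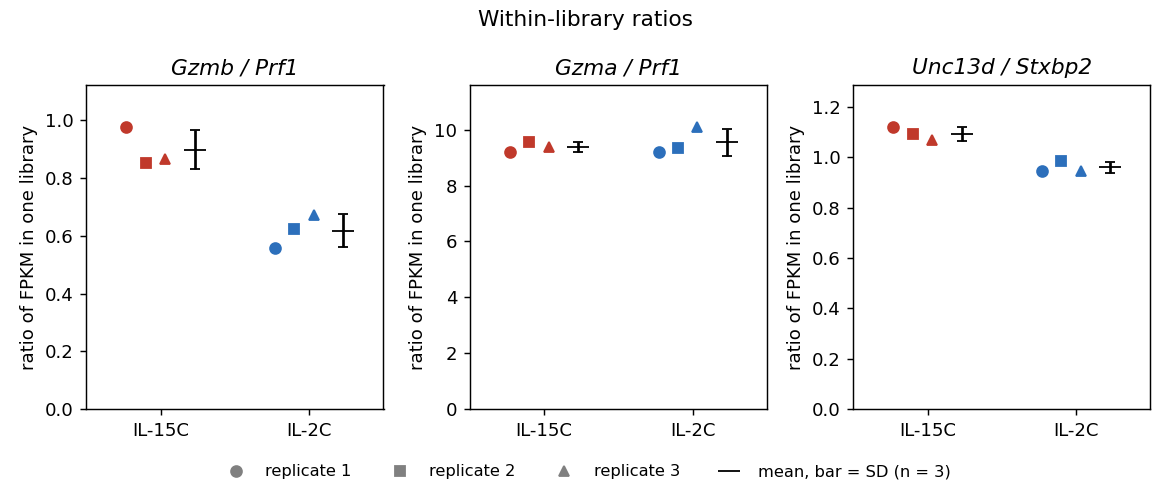
Ratios of FPKM within each library for Gzmb to Prf1, Gzma to Prf1 and Unc13d to Stxbp2 (vertical axes from 0), with means and SD (n = 3). The groups are apart for Gzmb to Prf1 and for Unc13d to Stxbp2, and overlap for Gzma to Prf1.

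Around the members, the wider granule pathway was described through 7 lists with 128 tested genes, of which 5 rose and 1 fell in IL-15C and 122 did not pass (limma), where 1.72% of all tested genes rose and 4.72% fell. Their median log2 change was -0.01, against -0.04 for all tested genes. At an unadjusted p under 0.05, 13 were higher and 17 lower, against shares of 6.48% and 20.4% over all tested genes, and the single lists are read against these same shares. The calls depended on single libraries. Leaving out IL-2C replicate 2, or using no filter on low values, none of the 6 passed, and leaving out IL-2C replicate 1 neither Igf2r, Itpr3, Myh9, Rbpj nor Zeb2 did. Igf2r and Zeb2 passed without IL-15C replicate 2 and likewise when IL-2C replicate 3 was left out, while Itpr3, Myh9 and Rbpj did not. All but Itpr3 and Myh9 passed when IL-15C replicate 3 was left out, and all but Myh9 in the absence of IL-15C replicate 1.

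Among 26 tested genes of lysosome and granule biogenesis, 1 rose, 0 fell and 25 did not pass, with a median of -0.04 and with 3 higher and 5 lower at an unadjusted p under 0.05. The gene that rose was Igf2r, the receptor that carries mannose 6-phosphate-tagged enzymes such as granzymes to lysosomes, at 24.5, 23.6 and 22.1 FPKM after IL-15C, with 18.0, 17.9 and 18.7 after IL-2C. Its log2 change was 0.34 ± 0.05 (limma adjusted p = 0.0106). The other mannose 6-phosphate receptor gene, M6pr, named outside the rule, had 0.0009 ± 0.05. Among 15 tested cathepsins, their inhibitors and other lysosomal proteins, 1 rose and 14 did not pass, with a median of 0.04 and with 1 higher and 1 lower at an unadjusted p under 0.05.

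None of the 19 tested SNAREs and their partners passed (limma). At an unadjusted p under 0.05, 1 was higher and 2 were lower (6.48% and 20.4% of all tested genes), and their median was -0.03, near the -0.04 of all genes. Vti1a, a Golgi and endosome SNARE, had the highest log2 change at 0.16 ± 0.06, and Napa, which helps to take SNARE complexes apart, the lowest at -0.15 ± 0.05 (limma adjusted p = 0.140 and 0.0862). Among 15 tested Rab GTPases, effectors and related genes, 0 passed, with 1 higher and 3 lower at an unadjusted p under 0.05, shares near those of all tested genes (6.48% and 20.4%), and a median of -0.07. Rab3d, a GTPase of regulated secretion, had 0.15 ± 0.06 and Madd, an exchange factor for Rab3 and Rab27 GTPases, -0.12 ± 0.05. Of 9 tested genes of calcium entry and calcium sensing, 0 passed, 0 were higher and 1 was lower at an unadjusted p under 0.05, and Syt11, a synaptotagmin, had the lowest log2 change at -0.17 ± 0.06.

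The list of granule movement, actin and signalling genes had a median of 0.06, and 2 of 26 rose, 0 fell and 24 did not pass. Over all tested genes 1.72% rose and 4.72% fell. At an unadjusted p under 0.05, 6 were higher and 0 lower, and the groups did not overlap for 7 that were higher and 0 that were lower, where the shares over all tested genes were 8.15% and 25.1%. Myh9, the heavy chain of non-muscle myosin IIA, had 197, 189 and 179 FPKM after IL-15C, with 165, 162 and 157 after IL-2C, a log2 change of 0.22 ± 0.05 (limma adjusted p = 0.0365). Itpr3, a calcium release channel of the endoplasmic reticulum, had 28.3, 27.6 and 27.8 FPKM against 24.0, 24.6 and 24.4, a change of 0.19 ± 0.04 (adjusted p = 0.0271). It was counted in this list and not among the genes of calcium entry and sensing. Of 18 transcription factors linked to perforin expression, 1 rose, 1 fell and 16 did not pass, with a median of -0.04 and with 1 higher and 5 lower at an unadjusted p under 0.05. Rbpj, the DNA-binding partner of Notch, had 10.2, 9.26 and 8.19 FPKM after IL-15C, with 6.32, 7.08 and 6.96 after IL-2C and rose by 0.39 ± 0.07 (adjusted p = 0.0230). Zeb2, a factor of late NK maturation, had 35.2, 39.1 and 38.3 FPKM against 47.5, 45.2 and 47.1, and fell by 0.31 ± 0.05 (adjusted p = 0.0165). Eomes and Tbx21, T-box factors known to bind Prf1 and named outside the rule, had -0.17 ± 0.05 and 0.0011 ± 0.08, and neither passed (limma adjusted p = 0.0755 and 0.994).

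**Figure D4:**
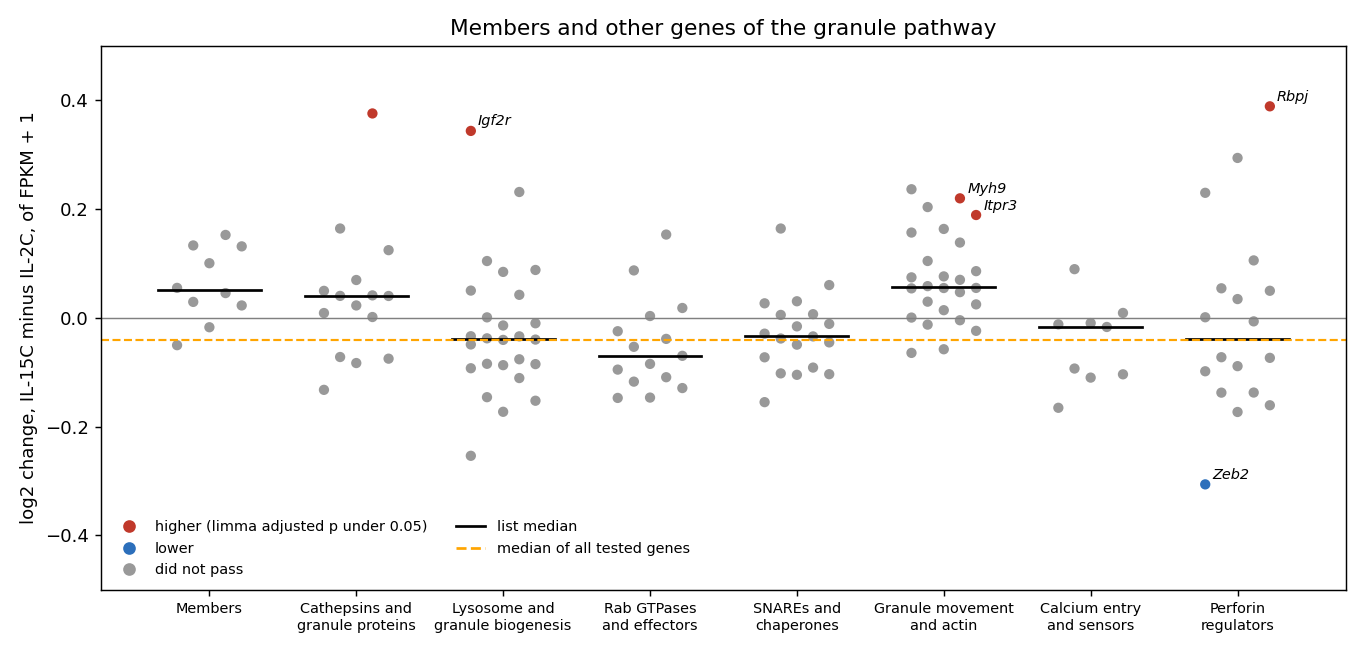
Log2 change of FPKM + 1 between IL-15C and IL-2C for each tested gene of the 10 members and of 7 pathway lists (red and blue, past the limma test; grey, not past it), with the names of those described in the text. Black lines are list medians and the dashed line the median of all tested genes at -0.04; the members hold no coloured point.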

How the data were processed

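The submitters' processing notes name TopHat2 2.0.13, Cufflinks 2.2.1 and the build mm10. No source used here gives the annotation or the strand setting of the counting. What the authors deposited is FPKM with interval bounds, in 1 table per library, and a table of Cuffdiff group values, which was scaled separately and used only where named. Rows were summed per gene, and 10 genes with a failed estimate in any library were left out. Implied fragments come from reading each deposited interval as 2 SD of a Poisson count, and cover counting error only. FPKM is not a count, so limma 3.58.1 (R 4.3.3, intensity trend, two-sided) was fitted on log2(FPKM + 1) for 9831 genes with a mean of at least 1 FPKM, with Benjamini-Hochberg adjustment over all of them. In simulated data, the fit recovered 58.6% of log2 changes of 0.25 and 97.6% of changes of 0.50. Changes as small as the largest of a member, 0.15 (Srgn), were not simulated. The simulated libraries had no differences in scaling. Their values were drawn as independent and normal, with variances that the limma fit had already drawn toward a common trend. Recovery in the real libraries may thus be lower. Exact permutation tests, plots and tables used Python 3.11.15 with pandas 2.3.3, numpy 2.4.6 and matplotlib 3.10.9.

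Sample titles gave each library's group and number. The members and lists were chosen with earlier results of these data known, so they give no independent support. The genes named are the 10 members, up to 4 called genes per pathway list with the smallest adjusted p, or the highest and lowest change at a mean of at least 5 FPKM where none was called, Gzma and Gzmb, and the 3 genes most like Prf1 across libraries among those with a mean of at least 20 FPKM. Any other gene named was chosen after its values were seen, and some genes under the rule are not reported here. Positions are those of the deposited files, 1-based. The alternatives were pseudocounts of 0.1 and 5, no filter, a mean of at least 5 FPKM, 3 other scalings, limma without trend, array weights, a replicate block, the largest row per gene and leaving out each library.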

Additional observations from a re-analysis of the deposited data

How the results depend on the processing

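None of the 10 members passed (limma, adjusted p) with any library left out in turn, in fits that called between 0.295% and 7.64% of all tested genes. In all, 158 of 170 member values under the alternatives kept their direction and their side of the threshold. Changing the filter, the trend, the replicate block or the choice of row left every member's change exactly as it was. Direction could not turn under those alternatives, so their values say nothing about it. Members had not passed to begin with, so most values staying on that side is no measure of robustness. Unc13d alone passed under the common median (1 member higher) and quantile normalization (1 member higher), and Rab27a alone with array weights (1 member higher). These fits called 5.41%, 5.86% and 21.4% of all tested genes, in that order. Directions near 0 turned: Ctsc to 0.028 under the common median, Lamp1 to -0.013 with array weights, and, over the omissions of single libraries, Ctsc ran from -0.075 to 0.033, Nkg7 from -0.012 to 0.084, Lamp1 from -0.030 to 0.087, Lyst from -0.014 to 0.11 and Stx11 from -0.010 to 0.047. The causes were not tested.

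Counts over all tested genes, 169 higher and 464 lower, became 6 and 9 with no filter, 325 and 207 under the common median, 307 and 269 after quantile normalization and 440 and 1667 with array weights, and ran from 14 to 176 and from 15 to 575 with single libraries left out. For the pathway lists, 5 higher and 1 lower became 0 and 0 with no filter and 13 and 12 with array weights. The higher count was 8 under the common median, 8 after rescaling to a common sum and 8 after quantile normalization, where the lower count was 2. Single omissions gave 0 to 7 higher and 0 to 2 lower. The log2 difference in the Gzmb to Prf1 ratio was 0.53 to 0.56 under the pseudocounts and scalings and 0.47 to 0.60 with single libraries left out.

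The numbers are not stated to pair libraries and were not taken to pair them. Deviations of same-numbered libraries had correlations across genes of -0.03, -0.16 and -0.02. Differently numbered libraries had values from -0.14 to 0.18, as far from 0, so these correlations cannot decide whether libraries were paired. With the replicate block 171 genes were higher, 346 lower and 0 members passed; in the pathway lists it gave 6 higher and 1 lower. At 3 libraries per group the widest member interval ran from -0.08 to 0.28 (Prf1).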

Other observations

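Close relatives of the release genes, chosen after their values were seen, were mostly at lower levels in these cells. Unc13d had 40.6 to 48.8 FPKM over the 6 libraries, whereas Unc13a and Unc13b, which prime synaptic vesicles in neurons, had 0.0436 to 0.126 and 0.0103 to 0.0366. Rab27b had 0.578 to 0.940 FPKM against 32.8 to 39.4 for Rab27a. Stxbp3 was closer to its relative Stxbp2, at 23.1 FPKM or more against 41.9 to 47.0. Among plasma membrane syntaxins, Stx11 at 21.7 to 23.7 FPKM exceeded Stx3 at 1.63 to 1.85 and was below Stx4a at 38.2 to 46.6. Of the Rab27 effectors, Sytl3 had 114 to 130 FPKM, Sytl2 47.9 to 54.5 and Sytl1 1.51 to 2.24. Cathepsin genes Ctsd and Ctsw, at 635 to 754 and 401 to 454 FPKM, exceeded Ctsc, at 68.5 to 79.7.

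The authors' deposited table lists Prf1 at 848 FPKM in IL-15C (bounds 707 and 989) and 769 in IL-2C (bounds 643 and 896). That table was scaled apart from the library tables, and the authors' deposited table has the ratio of IL-15C to IL-2C lowest for Stxbp2, at 0.995, and highest for Srgn among the members.

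The 3 genes whose profile over the 6 libraries was most like that of Prf1 were Rps12, Was and Arf1, by Pearson's r of 0.99, 0.99 and 0.98 on log2(FPKM + 1), given as a description. Of 3320 genes compared, 86 had a value above 0.9, and all profiles share the same libraries and scaling.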
